A study of Homo sapiens with 12 samples.

Results

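The genes described here are 10 members of the retinoic acid pathway among the 36137 gene symbols counted: ALDH1A3, ALDH1A1, RDH10, RDH11 and DHRS3 of retinoid synthesis and interconversion, CRABP2 of retinoic acid binding, and the receptor genes RARA, RARB, RARG and RXRA. ALDH1A3 was chosen by its higher counts with androgen and with PXN siRNA in these libraries, and the others were listed by role. The ALDH1A3 values of every comparison are therefore a description and carry no test. Of the 10 members, 9 had enough counts to be fitted. ALDH1A1 did not, with 0 to 2 counts in each of the 12 libraries.

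The cells were LNCaP, an established, androgen-sensitive prostate cancer line from a lymph node metastasis. All groups were transfected with an siRNA for 48 h and then serum starved for 12 h, after which treatment lasted 24 h. The 4 groups of 3 libraries each were PXN siRNA (against paxillin, a focal adhesion adaptor) with 2.5 nM dihydrotestosterone (DHT, a natural androgen), PXN siRNA with ethanol vehicle, non-specific siRNA with DHT, and non-specific siRNA with ethanol vehicle. There was no group without siRNA or without serum starvation, and nothing in the labels tells whether replicates were separate cultures. The p-values therefore cover the spread among these libraries, and that spread may be technical.

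Retinol is oxidised to retinal by short-chain dehydrogenases such as RDH10, while DHRS3 and RDH11 mainly run the opposite step and turn retinal back into retinol. Aldehyde dehydrogenases of the ALDH1A group then oxidise retinal irreversibly to retinoic acid. CRABP2 carries retinoic acid to nuclear receptors of the RAR type, which bind DNA as pairs with an RXR partner at repeated half-sites, and RARB and DHRS3 are textbook targets of these receptors. RDH11 is known as an abundant, androgen-regulated enzyme gene of prostate epithelium.

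PXN stood at 20.0, 18.1 and 16.6 CPM (the usual depth-scaled read count) with PXN siRNA and DHT and at 15.2, 21.2 and 14.9 CPM with PXN siRNA and vehicle, against 113, 99.7 and 104 CPM with non-specific siRNA and DHT and 112, 106 and 108 CPM with non-specific siRNA and vehicle (replicates 1 to 3). The libraries held 34321000 to 38633456 counts, and 18468 genes were tested. KLK3, the androgen-induced gene of prostate-specific antigen, passed upward with DHT under both siRNAs (adjusted p = 0.00191 with PXN siRNA and 0.000392 with non-specific siRNA, edgeR quasi-likelihood test with Benjamini-Hochberg adjustment). The summed level of 7 luminal prostate markers was 2099 to 2524 CPM with PXN siRNA and DHT and 1445 to 1633 CPM with PXN siRNA and vehicle, against 5089 to 5726 CPM with non-specific siRNA and DHT and 2635 to 2994 CPM with non-specific siRNA and vehicle. Of these 7, 6 fell with PXN siRNA under DHT and 5 fell under vehicle, with KLK3, HOXB13 and KRT18 among them both times. Over all genes tested, 26.7% passed downward with PXN siRNA under DHT and 26.3% under vehicle. The 10 listed markers of other cell types (basal, stromal, endothelial, leukocyte) summed to 38.3 to 63.6 CPM over all libraries, and none of them was at 0 in every library. Of the 5 tested, COL1A1 rose with PXN siRNA by 0.82 on the log2 scale under DHT and by 0.57 under vehicle. COL3A1 (-0.83 and -0.80) and LUM (-1.70 and -2.22) fell under DHT and under vehicle, and KRT14 fell under DHT (-1.24). LUM and KRT14 rested on few counts. LUM had 2 to 4 counts a library with PXN siRNA against 5 to 15 with non-specific siRNA under DHT. Under vehicle it had 4 to 6 against 13 to 29. KRT14 had 5 to 10 counts with PXN siRNA against 12 to 19 with non-specific siRNA under DHT. The part of these marker shifts in the retinoid results was not tested, and in bulk samples fewer cells of a type and less RNA per cell cannot be told apart.

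ALDH1A3 lies on chromosome 15 at 100877714 to 100916626 on the plus strand (GRCh38) and encodes a retinal dehydrogenase, the most abundant ALDH1A gene in all 4 groups. Its level was 59.0, 61.1 and 65.6 CPM with PXN siRNA and DHT, 48.2, 43.3 and 51.3 CPM with PXN siRNA and vehicle, 50.3, 58.2 and 58.9 CPM with non-specific siRNA and DHT, and 27.5, 22.8 and 20.9 CPM with non-specific siRNA and vehicle. All 9 libraries that had received DHT, PXN siRNA or both therefore lay above the 3 that had received neither. The groups with both agents and with DHT alone were separated by a narrow margin, since the lowest library with both stood at 59.0 CPM and the highest with DHT alone at 58.9 CPM.

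The log2 fold change of ALDH1A3 was 1.24 ± 0.10 (SE) for DHT with non-specific siRNA and 1.01 ± 0.10 for PXN siRNA under vehicle. Each was smaller in cells that also had the other agent, at 0.38 ± 0.10 for DHT with PXN siRNA and 0.15 ± 0.10 for PXN siRNA under DHT. The difference between the 2 DHT responses was -0.86 ± 0.14 on the log2 scale, and these 5 values share libraries. In CPM, PXN siRNA alone added 23.9 and DHT alone added 32.1, which sum to 56.0, while both together added 38.2 to the level without either, a 2.61-fold difference. Ratios of libraries with the same replicate number were 1.76 to 2.46 for PXN siRNA under vehicle and 1.05 to 1.17 for PXN siRNA under DHT. For DHT they were 1.83 to 2.82 with non-specific siRNA and 1.23 to 1.41 with PXN siRNA. GENCODE 29 lists an antisense gene, AC015712.2, over 27.46% of the exon bases of ALDH1A3, and since no source here states how strand was handled in counting, reads of the pair cannot be told apart.

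**Figure D1:**
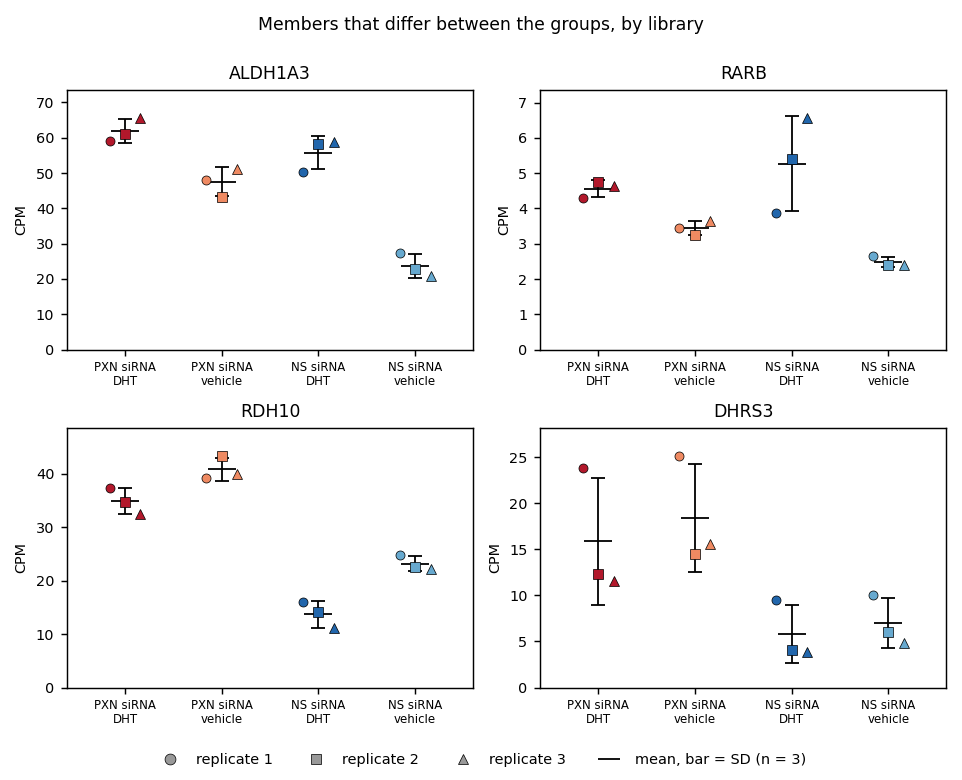
Levels of ALDH1A3, RARB, RDH10 and DHRS3 in CPM (y axes from 0) in the 4 groups of 3 libraries (x axes, NS standing for non-specific), with a marker shape for each replicate number and a bar for the mean and SD. The 3 ALDH1A3 libraries with neither agent sit at 20.9 to 27.5 CPM, below all others, and replicate 1 of DHRS3 is the highest in each group.

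The other ALDH1A genes were scarce. ALDH1A1 had 0, 2 and 1 counts with PXN siRNA and DHT, 0 in every library with PXN siRNA and vehicle, 1, 1 and 0 with non-specific siRNA and DHT, and 1, 1 and 0 with non-specific siRNA and vehicle. A count of 0 allows up to 3 counts, or 0.0784 to 0.0892 CPM in these libraries, so no difference was detectable at this depth. ALDH1A2, an ALDH1A gene outside the 10 members, stood at 4.29, 3.16 and 2.63 CPM with PXN siRNA and DHT and 4.80, 2.99 and 3.84 CPM with PXN siRNA and vehicle, against 1.28, 0.996 and 0.921 CPM with non-specific siRNA and DHT and 2.10, 0.893 and 1.15 CPM with non-specific siRNA and vehicle. It rose with PXN siRNA under DHT (log2 fold change 1.65 ± 0.29, adjusted p = 0.000297) and under vehicle (1.49 ± 0.28, adjusted p = 0.000509, edgeR quasi-likelihood test, Benjamini-Hochberg). Per kilobase of exon, ALDH1A3 averaged 10.7 CPM per kb with PXN siRNA and DHT, where ALDH1A2 averaged 0.390 and ALDH1A1 0.00972 CPM per kb.

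Over the 12 libraries, the log2 CPM of 5 genes followed ALDH1A3 most closely among the 11079 others with a mean of at least 5 CPM. They were PRKCH, which encodes a protein kinase C isoform (Pearson r = 0.9797), RP11-142C4.6 (0.972), GLYATL2, a glycine N-acyltransferase-like gene (0.963), TMEM79 (0.962) and IQGAP2, a scaffold protein gene (0.961). PRKCH, the closest, averaged 42.0 ± 5.04 CPM with PXN siRNA and DHT, 35.5 ± 2.67 with PXN siRNA and vehicle, 41.8 ± 1.87 with non-specific siRNA and DHT and 22.6 ± 1.51 with non-specific siRNA and vehicle (SD, n = 3). These correlations are a description with no test, since the libraries share groups, treatments and scaling. Of the 6 other members with at least 5 CPM, RXRA had r = 0.738 with ALDH1A3 and RARG -0.609.

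Levels of different genes were compared per kilobase of exon (GENCODE 29). With PXN siRNA and DHT, RDH11 led at 108 ± 8.02 CPM per kb (SD, n = 3), followed by RXRA at 18.0 ± 0.226, ALDH1A3 at 10.7 ± 0.584, RDH10 at 6.55 ± 0.457 and DHRS3 at 5.23 ± 2.27. RARA, RARG, RARB and CRABP2 followed at 3.39 ± 0.326, 2.67 ± 0.113, 1.24 ± 0.0663 and 0.660 ± 0.127 CPM per kb. RDH11 and RXRA took the first and the second place in all 4 groups. ALDH1A3 held the third place in the 3 groups with an agent, though with PXN siRNA and vehicle its range of 7.49 to 8.88 CPM per kb overlapped the 7.35 to 8.14 of RDH10. Without either agent it took the fourth place at 4.11 ± 0.588 CPM per kb and did not separate from its neighbours RDH10 at 4.36 ± 0.274 and RARG at 4.09 ± 0.434.

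**Figure D2:**
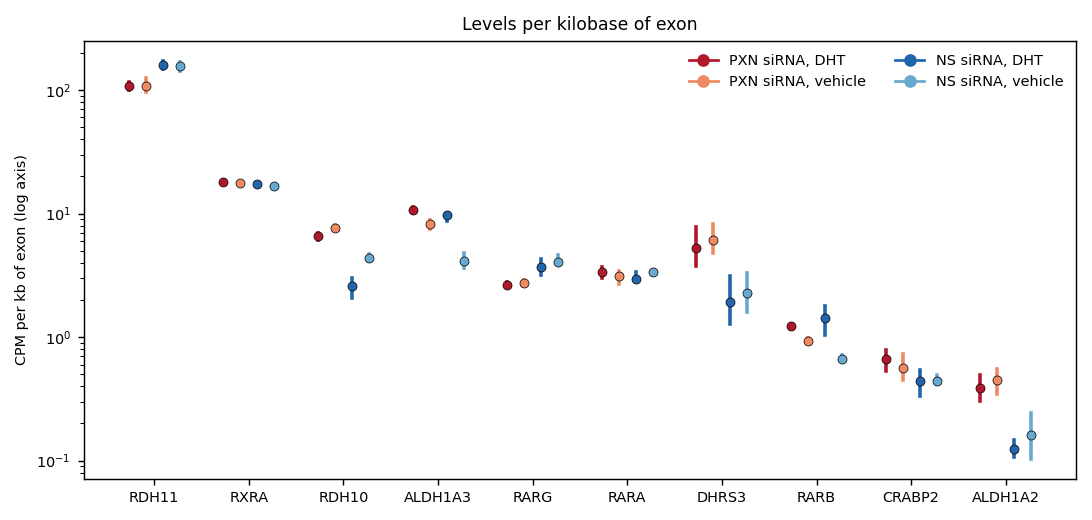
Levels of 9 members and ALDH1A2 in CPM per kb of exon on a log axis, ordered by the level with non-specific siRNA and vehicle. Points are means of 3 libraries and vertical lines run from the lowest to the highest library, in 4 colours for the groups. RDH11 (108 to 159.5 CPM per kb as group means) and RXRA (16.6 to 18.0) stand above the other genes in all 4 groups.

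The genes that interconvert retinol and retinal differed in direction. With PXN siRNA, RDH10 and DHRS3 rose and RDH11 fell, under DHT and under vehicle alike, while with DHT alone RDH10 fell. RDH10, the retinol dehydrogenase on chromosome 8 (73294612 to 73325281, plus strand), had 37.3, 34.8 and 32.4 CPM with PXN siRNA and DHT, 39.1, 43.3 and 40.0 CPM with PXN siRNA and vehicle, 15.95, 14.1 and 11.1 CPM with non-specific siRNA and DHT, and 24.8, 22.6 and 22.1 CPM with non-specific siRNA and vehicle. Its 4 groups did not overlap, with the DHT libraries of the non-specific siRNA lowest. PXN siRNA raised RDH10 by 1.34 ± 0.11 on the log2 scale under DHT (adjusted p = 2.95e-07) and by 0.82 ± 0.10 under vehicle (adjusted p = 1.69e-05). DHT lowered it with non-specific siRNA (log2 fold change -0.76 ± 0.11, adjusted p = 0.000907) and gave -0.23 ± 0.10 with PXN siRNA, which did not pass (adjusted p = 0.645, all by edgeR quasi-likelihood test with Benjamini-Hochberg adjustment). The difference between the 2 DHT responses of RDH10 was 0.53 ± 0.15 and did not pass either (adjusted p = 0.734; unadjusted p = 0.00306 in the same edgeR fit).

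DHRS3, a retinal reductase gene on chromosome 1 (12567910 to 12617731, minus strand), had 23.8, 12.3 and 11.5 CPM with PXN siRNA and DHT and 25.1, 14.5 and 15.5 CPM with PXN siRNA and vehicle, against 9.48, 4.07 and 3.86 CPM with non-specific siRNA and DHT and 10.0, 6.03 and 4.83 CPM with non-specific siRNA and vehicle. Replicate 1 was the highest library in every group, and the groups of the 2 siRNAs still did not overlap. DHRS3 rose with PXN siRNA by 1.45 ± 0.37 on the log2 scale under DHT (adjusted p = 0.00451) and by 1.40 ± 0.36 under vehicle (adjusted p = 0.00523, edgeR quasi-likelihood test, Benjamini-Hochberg). Ratios between libraries of the same number varied less than the levels, at 2.51, 3.02 and 2.98 for PXN siRNA under DHT and 2.51, 2.41 and 3.21 under vehicle. With the replicate number as a block the SE under vehicle was 0.10 (log2 fold change 1.42). DHT gave -0.21 ± 0.35 with PXN siRNA and -0.26 ± 0.39 with non-specific siRNA (adjusted p = 0.952 and 0.823), while all 6 same-number ratios for DHT lay below 1, at 0.742 to 0.948 with PXN siRNA and 0.675 to 0.945 with non-specific siRNA. Of all tested genes, 7.61% had replicate 1 highest in all 4 groups, and RARA and RXRA were 2 further members among them.

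RDH11, on chromosome 14 (67676801 to 67695814, minus strand), had 553, 641 and 596 CPM with PXN siRNA and DHT and 536, 690 and 558 CPM with PXN siRNA and vehicle, against 953, 866 and 821 CPM with non-specific siRNA and DHT and 923, 879 and 784 CPM with non-specific siRNA and vehicle. All 6 libraries with PXN siRNA lay below all 6 with non-specific siRNA. RDH11 fell with PXN siRNA under DHT (log2 fold change -0.56 ± 0.10, adjusted p = 0.000287) and under vehicle (-0.54 ± 0.10, adjusted p = 0.000438, edgeR quasi-likelihood test, Benjamini-Hochberg). DHT gave 0.01 ± 0.10 with PXN siRNA and 0.03 ± 0.10 with non-specific siRNA, with overlapping groups.

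Among the receptor genes, RARB and RARG changed, while RARA and RXRA passed in none of the comparisons with TMM scaling and the standard filter. RARB, on chromosome 3 (25174332 to 25597932, plus strand), encodes the retinoic acid receptor beta. RARB had 4.29, 4.77 and 4.64 CPM with PXN siRNA and DHT, 3.46, 3.26 and 3.63 CPM with PXN siRNA and vehicle, 3.86, 5.40 and 6.57 CPM with non-specific siRNA and DHT, and 2.65, 2.41 and 2.39 CPM with non-specific siRNA and vehicle, from 83 to 221 counts a library. As for ALDH1A3, the 3 libraries with neither agent were the lowest of the 12. The share of all genes with that order was not counted. Groups did not overlap for 20.3% of all genes tested with DHT and non-specific siRNA, and for 56.9% with PXN siRNA under vehicle. DHT raised RARB with non-specific siRNA (log2 fold change 1.09 ± 0.17, adjusted p = 0.00175), while with PXN siRNA it gave 0.40 ± 0.16 (adjusted p = 0.586) in groups that did not overlap. PXN siRNA raised it under vehicle by 0.48 ± 0.17 (adjusted p = 0.0327), and gave -0.21 ± 0.16 under DHT (adjusted p = 0.298, edgeR quasi-likelihood test, Benjamini-Hochberg). The rise under vehicle missed the threshold by limma-voom (adjusted p = 0.0501) and without replicate 2 or 3 of non-specific siRNA with vehicle or replicate 1 or 3 of PXN siRNA with vehicle, where the log2 fold change was 0.43 to 0.47. With the replicate number as a block this rise passed at 0.47 ± 0.16 (adjusted p = 0.0187, edgeR with the block). Under DHT the difference passed only without replicate 1 of non-specific siRNA with DHT (-0.39, edgeR adjusted p = 0.0272), of the alternatives tried. The difference between the 2 DHT responses of RARB was -0.68 ± 0.24 and did not pass (adjusted p = 0.993; unadjusted p = 0.0114 in the edgeR fit).

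Start-site windows of ALDH1A3 and RARB are shown because both genes were lowest with neither agent, and that of DHRS3 because it rose with PXN siRNA. The windows run from 250 bases before to 50 after a RefSeq start site (GRCh38.p14), and 9 of the 10 members, all but RDH10, were matched in the table used here. They were searched on both strands for 4 retinoid half-sites, namely AGGTCA, its variant GGGTCA, the form AGTTCA and the form GGTTCA, and matches are in capitals.
ALDH1A3, chr15:100879581-100879880, plus strand: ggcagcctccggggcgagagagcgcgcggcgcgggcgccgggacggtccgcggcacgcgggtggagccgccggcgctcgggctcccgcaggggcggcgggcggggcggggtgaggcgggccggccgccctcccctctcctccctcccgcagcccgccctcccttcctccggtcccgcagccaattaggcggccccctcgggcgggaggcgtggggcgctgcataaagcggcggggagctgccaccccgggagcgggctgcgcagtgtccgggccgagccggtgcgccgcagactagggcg
RARB, chr3:25428013-25428312, plus strand: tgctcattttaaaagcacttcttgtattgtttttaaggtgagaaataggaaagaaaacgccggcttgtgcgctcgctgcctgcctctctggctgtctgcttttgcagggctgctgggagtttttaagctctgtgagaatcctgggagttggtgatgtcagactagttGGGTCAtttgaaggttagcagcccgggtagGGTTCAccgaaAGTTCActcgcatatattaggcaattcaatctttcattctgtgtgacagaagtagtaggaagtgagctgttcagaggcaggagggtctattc
DHRS3, chr1:12616740-12617039, minus strand: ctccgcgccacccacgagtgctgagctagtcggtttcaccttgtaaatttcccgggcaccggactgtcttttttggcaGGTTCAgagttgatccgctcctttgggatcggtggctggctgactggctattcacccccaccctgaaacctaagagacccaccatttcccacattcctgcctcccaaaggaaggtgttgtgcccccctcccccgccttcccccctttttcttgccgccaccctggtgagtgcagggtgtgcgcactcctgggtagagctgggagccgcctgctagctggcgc
The RARB window holds 3 retinoid half-sites, of which GGTTCA and AGTTCA stand in the same orientation with 5 bases between them, an arrangement known as a DR5, starting 53 bases before the start site. Such a pair is found in 0.0883% of the 35116 start-site windows of that length, and any of the 4 retinoid half-sites in 38.6%. The DHRS3 window holds a single half-site, and the ALDH1A3 window none of the 4 words searched. These are 1 of 4 RARB windows and 1 of 3 DHRS3 windows, picked for their matches after the search. Of the other RARB windows none holds a DR5 and 1 holds no half-site, and of the other DHRS3 windows 1 holds a half-site and 1 holds none. The gene counts do not say which start sites were used, and a match of letters does not show binding.

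RARG, on chromosome 12 (53210567 to 53232980, minus strand), encodes the receptor gamma. It had 13.2, 13.5 and 14.3 CPM with PXN siRNA and DHT and 15.0, 13.3 and 13.8 CPM with PXN siRNA and vehicle, against 22.1, 18.5 and 16.5 CPM with non-specific siRNA and DHT and 23.5, 19.6 and 19.8 CPM with non-specific siRNA and vehicle. The libraries with PXN siRNA all lay below those with non-specific siRNA. RARG fell with PXN siRNA under DHT (log2 fold change -0.48 ± 0.11, adjusted p = 0.00178) and under vehicle (-0.58 ± 0.11, adjusted p = 0.000399, edgeR quasi-likelihood test, Benjamini-Hochberg). DHT gave -0.04 ± 0.11 with PXN siRNA and -0.14 ± 0.11 with non-specific siRNA, neither past the threshold.

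RXRA, the common dimer partner, spanned 197 to 202 CPM with PXN siRNA and DHT and 189 to 199 CPM with PXN siRNA and vehicle, against 186 to 196 CPM with non-specific siRNA and DHT and 181 to 191 CPM with non-specific siRNA and vehicle. Its log2 fold changes in the 4 comparisons ran from 0.04 to 0.08, each with an SE of 0.05. RXRA passed upward with PXN siRNA under vehicle when genes under a mean of 1 CPM were left out (0.12), and with upper-quartile scaling at 0.17 under DHT and 0.18 under vehicle, a scaling that moved the median of all genes to 0.13 and 0.12 in those comparisons. RARA, the receptor alpha gene, spanned 14.3 to 17.3 CPM with PXN siRNA and DHT and 12.7 to 16.1 CPM with PXN siRNA and vehicle, against 13.3 to 15.8 CPM with non-specific siRNA and DHT and 15.7 to 16.3 CPM with non-specific siRNA and vehicle, with overlap in every comparison. It too passed with PXN siRNA under DHT when upper-quartile scaling was used (0.29, adjusted p = 0.0323, edgeR), against 0.19 ± 0.11 otherwise. CRABP2, the retinoic acid carrier, was near the limit of detection at 13 to 31 counts a library, and its 0.726 ± 0.140 CPM with PXN siRNA and DHT against 0.487 ± 0.113 CPM with non-specific siRNA and DHT (SD, n = 3) did not pass (log2 fold change 0.57 ± 0.28, edgeR adjusted p = 0.103).

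**Figure D3:**
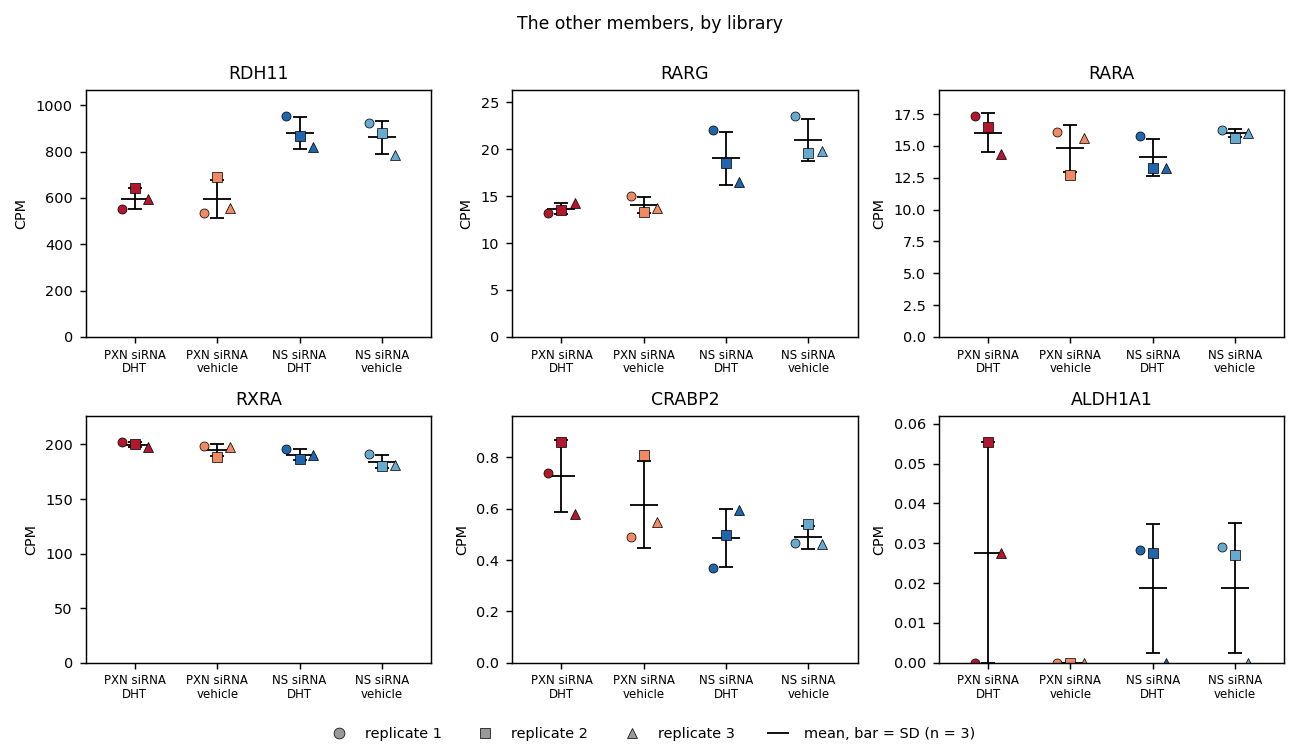
Levels of RDH11, RARG, RARA, RXRA, CRABP2 and ALDH1A1 in CPM (y axes from 0) in the 4 groups of 3 libraries (x axes), with a marker shape for each replicate number and a bar for the mean and SD. RDH11 and RARG lie lower in all 6 PXN siRNA libraries than in the 6 others, and ALDH1A1 is at 0 to 0.0554 CPM.

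Counted over the 8 tested members other than ALDH1A3, PXN siRNA under DHT raised 2 and lowered 2, where 51.8% of all genes tested passed, 25.0% upward and 26.7% downward. PXN siRNA under vehicle raised 3 and lowered 2, where 50.2% passed, 23.9% upward and 26.3% downward. Of all calls, 48.3% were upward under DHT and 47.7% under vehicle, and with upper-quartile scaling 60.7% and 60.2%. The shares of the members, 4 and 5 of 8, lie near that background. DHT with non-specific siRNA raised RARB and lowered RDH10, so 2 of 8, where 4.87% of all genes tested passed (2.72% upward and 2.16% downward), and 12.1% with the replicate number as a block. DHT with PXN siRNA called none of the 8, where 0.184% passed, all upward, and 2 of the 8 (RARB and RDH10) had an unadjusted p under 0.05, as did 1378 of the 18468 genes. None of the 8 passed in the interaction either, where 0 of 18468 genes passed by edgeR and 778 had an unadjusted p under 0.05. DESeq2 called 37 genes there and limma-voom 0, with none of the 8 among them. ALDH1A3 was left out of these member counts. Groups did not overlap for 5 of the 8 with PXN siRNA under DHT (59.9% of all genes) and 5 under vehicle (56.9%), and for 2 with DHT and PXN siRNA (13.6%) and 2 with DHT and non-specific siRNA (20.3%). The median log2 fold change of the 8 was 0.13 for PXN siRNA under DHT, 0.20 under vehicle, 0.02 for DHT with PXN siRNA and -0.08 for DHT with non-specific siRNA, beside medians over all genes of 0.03, 0.02, -0.01 and -0.01 in that order.

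**Figure D4:**
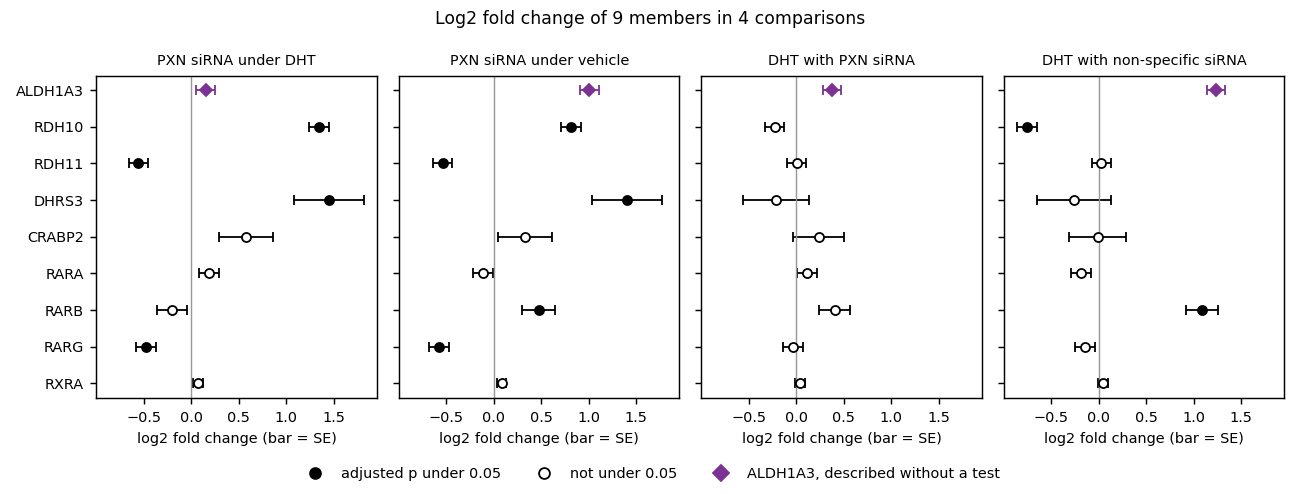
Log2 fold changes (x axes) of 9 members (rows) in the 4 pairwise comparisons, with SE bars. Filled circles passed an adjusted p of 0.05, open circles did not, and the diamonds of ALDH1A3 carry no test. RDH10 and DHRS3 lie to the right with PXN siRNA, RDH11 and RARG to the left, and few points leave 0 with DHT and PXN siRNA.

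The wider pathway was read from 5 lists of 72 further symbols, of which 40 were tested. PXN siRNA under DHT raised 11 and lowered 11 of the 40 (median log2 fold change 0.07), and under vehicle it raised 14 and lowered 10 (median 0.11), again close to the background of 51.8% and 50.2%. Counts of the single lists below stand beside the same background. It was 25.0% upward and 26.7% downward under DHT, and 23.9% upward and 26.3% downward under vehicle. DHT raised a single gene of the 40, ADH1C, with either siRNA and lowered none. Of all genes tested, 0.184% passed for DHT with PXN siRNA and 4.87% for DHT with non-specific siRNA. These shares also stand beside the DHT counts of the single lists below. With the replicate number as a block, which the DHT comparisons share, 3 of the 40 passed for DHT with PXN siRNA (background 1.87%) and 7 for DHT with non-specific siRNA (background 12.1%). NRIP1, a receptor-interacting corepressor gene, was then lower in both, by -0.23 ± 0.05 with PXN siRNA (adjusted p = 0.0352) and -0.26 ± 0.05 with non-specific siRNA (adjusted p = 0.00281, edgeR with the block). SCARB1 was higher in both, by 0.21 ± 0.05 with PXN siRNA (adjusted p = 0.048) and 0.21 ± 0.05 with non-specific siRNA (adjusted p = 0.00935, edgeR with the block).

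Of 5 tested genes for uptake, storage and carriage, 3 rose and 1 fell with PXN siRNA under DHT and under vehicle. SCARB1, a scavenger receptor that takes up lipoproteins and carotenoids, had 84.3, 103 and 81.0 CPM with PXN siRNA and DHT and 69.5, 89.3 and 72.5 CPM with PXN siRNA and vehicle, against 252, 274 and 242 CPM with non-specific siRNA and DHT and 213, 245 and 206 CPM with non-specific siRNA and vehicle. It fell by 1.52 on the log2 scale in both comparisons (SE 0.11, edgeR adjusted p = 1.51e-07 under DHT and 1.26e-07 under vehicle). TTR, which encodes transthyretin, the blood partner of the retinol carrier, rose by 1.48 ± 0.29 under DHT and by 1.70 ± 0.29 under vehicle. BCO2, a carotenoid-cleaving enzyme gene, rose by 2.20 ± 0.41 under DHT and by 2.31 ± 0.42 under vehicle, with 0.582 to 1.61 CPM in PXN siRNA libraries and 0.117 to 0.332 CPM in non-specific siRNA libraries. STRA6, the retinol uptake receptor, and LRAT, which esterifies retinol for storage, had too few counts to be tested.

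Of 12 tested genes for retinol and retinal interconversion, 1 rose and 4 fell with PXN siRNA under DHT, and 4 rose and 2 fell under vehicle. RDH12, a retinal reductase gene, fell by 0.98 ± 0.24 and by 1.20 ± 0.24 on the log2 scale, and DHRS4, whose close copies can share reads, fell by 0.37 ± 0.13 and by 0.58 ± 0.13. AKR1C3, an aldo-keto reductase with close paralogs that acts on steroids and on retinal, rose by 0.77 ± 0.26 under DHT (edgeR adjusted p = 0.0216). RDH13 rose under vehicle by 0.25 ± 0.08. ADH1C, an alcohol dehydrogenase gene with near-identical neighbours, had 0.793, 2.08 and 2.02 CPM with PXN siRNA and DHT against 0.463, 0.269 and 0.183 CPM with PXN siRNA and vehicle, and 1.25, 2.41 and 2.32 CPM with non-specific siRNA and DHT against 0.204, 0.216 and 0.0863 CPM with non-specific siRNA and vehicle. It rose with DHT by 2.41 ± 0.44 with PXN siRNA (adjusted p = 0.0399) and by 3.53 ± 0.48 with non-specific siRNA (adjusted p = 0.000643, edgeR quasi-likelihood test, Benjamini-Hochberg). The call with PXN siRNA was lost by limma-voom, with only the 2 groups compared in the fit, and without any 1 of 8 libraries.

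Of 4 tested genes for synthesis, binding and clearance of retinoic acid, ALDH1A2 and CYP1A1 rose with PXN siRNA and none fell. CYP1A1, a cytochrome P450 best known as a target of the aryl hydrocarbon receptor, had 10.1, 8.59 and 14.7 CPM with PXN siRNA and DHT and 11.2, 7.91 and 17.3 CPM with PXN siRNA and vehicle, against 2.27, 1.52 and 1.93 CPM with non-specific siRNA and DHT and 2.01, 1.92 and 1.55 CPM with non-specific siRNA and vehicle. It rose by 2.55 ± 0.28 under DHT (adjusted p = 4.71e-06) and by 2.73 ± 0.28 under vehicle (adjusted p = 2.67e-06, edgeR). CYP26A1, the retinoic acid hydroxylase that is a standard readout of receptor activity, had 0 to 6 counts a library and was not tested.

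Of 8 tested retinoic acid response genes, 3 rose, BTG2 and RARRES3 among them, and HOXA5 fell with PXN siRNA, under DHT as under vehicle, and none passed with DHT without the block. RARRES3, a tumour suppressor gene named for its response to retinoids, had 11.7, 8.89 and 12.6 CPM with PXN siRNA and DHT and 14.7, 11.7 and 15.3 CPM with PXN siRNA and vehicle, against 2.41, 1.58 and 1.46 CPM with non-specific siRNA and DHT and 2.74, 1.92 and 2.13 CPM with non-specific siRNA and vehicle. It rose by 2.60 ± 0.20 under DHT (adjusted p = 2.28e-07) and by 2.62 ± 0.19 under vehicle (adjusted p = 1.58e-07, edgeR). BTG2, an antiproliferative gene, rose by 0.66 ± 0.15 under DHT and by 0.61 ± 0.15 under vehicle, and HOXA5, a homeobox factor gene, fell by 1.17 ± 0.27 under vehicle. The median over the 8 was 0.36 under DHT and 0.33 under vehicle.

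Of 12 tested genes in the list of RXR and its dimer partners, 2 rose (NR4A2 and VDR) and 5 fell with PXN siRNA under DHT, and the same 2 rose and 6 fell under vehicle. PPARA, a fatty acid sensor, had 17.6 to 20.4 CPM with PXN siRNA and DHT against 31.6 to 36.5 CPM with non-specific siRNA and DHT (log2 fold change -0.80 ± 0.08), and -0.51 ± 0.08 under vehicle. NR1H3, the liver X receptor alpha gene, fell by 0.77 ± 0.10 under DHT and by 0.65 ± 0.10 under vehicle. PPARD fell by 0.54 ± 0.08 under DHT and by 0.65 ± 0.08 under vehicle. None of the 12 passed with DHT without the block.

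In the aldehyde dehydrogenase family beyond ALDH1A3 and ALDH1A1, 15 of 17 genes were tested, of which 4 rose and 6 fell with PXN siRNA under DHT, 5 rose and 5 fell under vehicle, beside 51.8% and 50.2% of all genes called, and none passed with DHT without the block. ALDH1B1, a mitochondrial member, had 55.4, 68.4 and 62.7 CPM with PXN siRNA and DHT and 48.2, 70.0 and 59.1 CPM with PXN siRNA and vehicle, against 122, 123 and 133 CPM with non-specific siRNA and DHT and 112, 110 and 124 CPM with non-specific siRNA and vehicle. It fell by 1.01 ± 0.11 under DHT and by 0.97 ± 0.11 under vehicle. ALDH6A1, of valine breakdown, fell by 0.52 ± 0.07 and by 0.45 ± 0.07, ALDH16A1 fell by 0.85 ± 0.12 under vehicle, and ALDH3B2 rose by 0.50 ± 0.08 under DHT. With the block, ALDH4A1 (0.27 ± 0.07) and ALDH3B2 (-0.24 ± 0.06) passed for DHT with non-specific siRNA and ALDH16A1 (0.36 ± 0.09) for DHT with PXN siRNA.

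**Figure D5:**
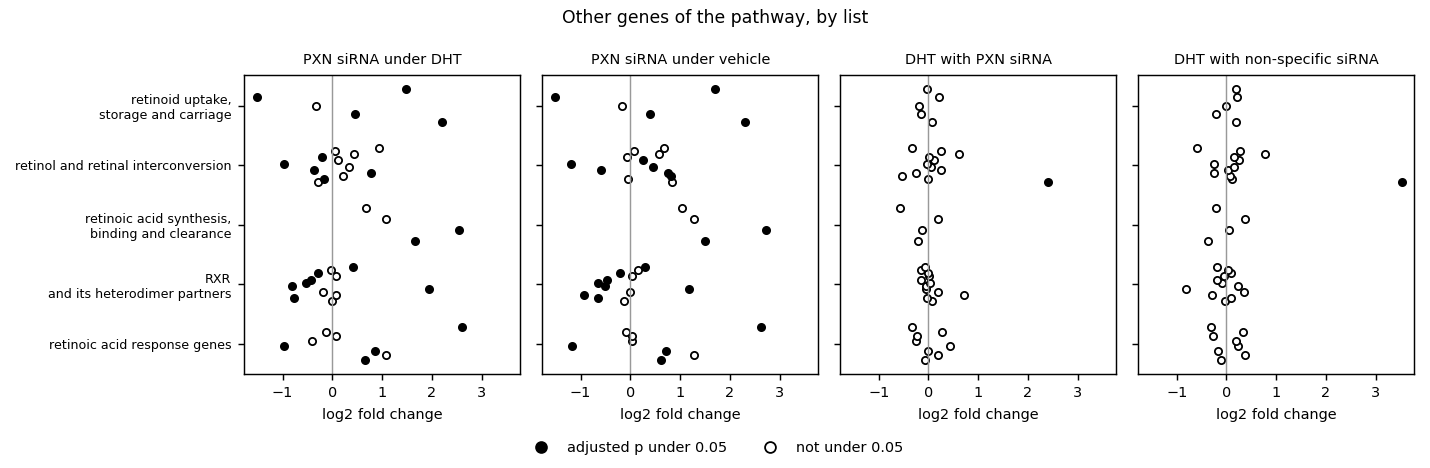
Log2 fold changes (x axes) of the tested genes in 5 lists of retinoid genes (rows, 1 point a gene) in the 4 pairwise comparisons, filled where the adjusted p was under 0.05. With PXN siRNA, 22 of 40 genes under DHT and 24 of 40 under vehicle are filled, on both sides of 0, while 1 gene, ADH1C, is filled in each DHT comparison.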

How the data were processed

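The labels' protocols name RNeasy Plus Mini for RNA and TruSeq Stranded mRNA for libraries. The authors deposited raw counts per gene symbol, and the submitters' processing notes list Trimmomatic 0.32, STAR 2.4.2a, Subread 1.5.0p3, featureCounts and the build GRCh38. Annotation, strand setting and the handling of multiply mapped reads are not stated there. In R 4.3.3, edgeR 4.0.16 kept 18468 genes (filterByExpr, 17669 left out), scaled them by TMM and fitted 1 quasi-likelihood model with a mean for each of 4 groups (8 residual degrees of freedom). Calls used a Benjamini-Hochberg adjusted p under 0.05 over all genes. The SE was |log2 fold change| / square root of F. Alternatives used limma 3.58.1 and DESeq2 1.42.0. CPM rest on TMM-scaled totals, 33.7 to 38.3 counts per CPM. Replicates differed beyond sampling noise (chi-square per gene 6.51 to 27.6), and floors cover counting error only.

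The members, lists and tests were chosen with earlier results of these data known. Named genes were the members, PXN, KLK3, up to 3 called genes of smallest p per list and pairwise comparison, and the 5 genes closest to ALDH1A3. Other genes given a value (NRIP1, SCARB1 for DHT, ALDH4A1 and markers) were chosen after their values were seen. Some genes that this rule names are not reported here. Groups share replicate numbers. Same-numbered libraries deviated together in every pair (r over 0.1) under vehicle (PXN siRNA, r = 0.121 to 0.210), and for DHT in non-specific siRNA (r = 0.145 to 0.383) and in PXN siRNA cells (r = 0.1004 to 0.307). Same-numbered libraries met this limit for pairing there. For PXN siRNA in DHT-treated cells (r = 0.0769 to 0.284) and the interaction (r = -0.0256 to 0.383) they did not. The main fit held no replicate term, so its p-values are unpaired in every comparison. Pairing enters only the same-number ratios and the results given with the replicate block. Exon lengths and positions came from GENCODE 29 (GRCh38), possibly not the annotation counted on. The scripts were tested on simulated data.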

Additional observations from a re-analysis of the deposited data

How the results depend on the processing

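ALDH1A3 was chosen for its rise in these same libraries, so its values under the alternatives are a description and lend no support. ALDH1A3 kept its direction under every alternative tried. Leaving out 1 library at a time, its log2 fold change ran from 0.08 to 0.19 for PXN siRNA under DHT, 0.92 to 1.11 under vehicle, 0.32 to 0.44 for DHT with PXN siRNA and 1.15 to 1.36 with non-specific siRNA. When 1 library was left out, the number of other members called was 4 to 5 in both PXN siRNA comparisons. It was 2 for DHT with non-specific siRNA and 0 for DHT with PXN siRNA. The replicate block changed the call of none of these other members. The 40 pathway genes gave 1 call for DHT with PXN siRNA, which became 3 with the replicate block and 0 with a mean of at least 1 CPM, limma-voom, only the groups compared, or an adjusted p under 0.01, and 0 to 1 without single libraries. For DHT with non-specific siRNA the 1 call became 7 with the block, 2 with no low-count filter, 2 with a mean of at least 1 CPM, 3 with the DESeq2 Wald test, and 1 to 3 without single libraries. For PXN siRNA under vehicle, 24 calls became 14 at an adjusted p under 0.01. Over all genes, DHT with PXN siRNA called 34 genes, 346 with the block, 188 with no low-count filter, 143 by DESeq2, 18 with only the groups compared, 11 at the stricter threshold and 8 to 71 without single libraries. DHT with non-specific siRNA called 900, 2236 with the block, 406 at the stricter threshold and 424 to 1362 without single libraries. The interaction called 0, 58 with the block, 37 by DESeq2, 35 with no low-count filter, 1 with DESeq2 size factors and 0 to 43 without single libraries. For PXN siRNA under DHT, where the lowest r of same-numbered libraries was 0.0769, the block gave DHRS3 1.47 ± 0.11. Differences that changed sign were all uncalled, and the cause was not tested. CRABP2 for DHT with non-specific siRNA was 0.0007 by DESeq2 and -0.1734 to 0.1533 without single libraries. Without single libraries DHRS3 was -0.628 to 0.0786 for DHT with PXN siRNA, -0.809 to 0.1027 with non-specific siRNA and -0.3683 to 0.5971 for the interaction. RARG was -0.0716 to 0.014 for DHT with PXN siRNA. RDH11 was -0.0643 to 0.1258 for DHT with PXN siRNA (-0.0012 with upper-quartile scaling), -0.0341 to 0.0881 with non-specific siRNA and -0.0938 to 0.0962 for the interaction, where RXRA was -0.0456 to 0.0045. Depth limits CRABP2 and ALDH1A1 most.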
